A study of Mus musculus with 4 samples.

Results

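The genes described are the mouse receptors for glutamate, GABA, acetylcholine, ATP and related nucleotides, and adenosine. These genes were measured in RNA of primary oligodendrocytes, control or with a knockout of the long noncoding RNA lncOL1. They were chosen by gene symbol alone, from the families Gria, Grik, Grin, Grm, Gabr, Gabbr, Chrm, Chrn, P2rx, P2ry and Adora, which gave 81 of the 23435 genes with a usable value. P2ry12 was left out by the rule. The 81 include Grin1os, an antisense transcript over the NMDA receptor gene Grin1 that encodes no receptor. By transmitter, 25 belong to glutamate (Grin1os among them), 17 to GABA, 21 to acetylcholine and 18 to purines.

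Mouse oligodendrocyte precursor cells in primary culture had been given the thyroid hormone T3 for 1 day to start differentiation, in every group. The genotype label of the 2 control samples lists lncOL1+/+ together with lncOL1+/-, without saying which sample has which, and the 2 knockout samples are lncOL1-/-. Both groups have a mixed strain background, and the labels used here give no age or promoter and do not say whether samples came from separate animals or cultures. P-values therefore reflect nothing beyond the variation among these 4 samples, and that variation may be technical.

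Transmitter receptors are known from oligodendrocyte precursors, which receive synaptic input from axons, and many of them become scarcer as the cells mature. AMPA (Gria), kainate (Grik) and NMDA (Grin) receptors are glutamate-gated cation channels, while Grm genes encode G protein-coupled glutamate receptors. GABA acts on chloride channels built from Gabr subunits and on a G protein-coupled pair, Gabbr1 with Gabbr2. Acetylcholine acts on nicotinic channels (Chrn) and muscarinic receptors (Chrm), ATP on P2rx channels, nucleotides on P2ry receptors, and adenosine on Adora receptors.

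Values are FPKM, fragments scaled to transcript length and library size, so levels can be compared between genes. Read counts are not in the files and depth is known only in relative terms, from 0.94 to 1.18 times that of control replicate 1. Genes that averaged 1 FPKM or more across the 4 libraries, 11361 in all, were tested with limma on log2(FPKM + 1), and a gene with an adjusted p under 0.05, adjusted over all genes tested, is called higher or lower. lncOL1 itself, listed as 9630013A20Rik, was at 28.9 and 34.0 FPKM in control against 5.54 and 5.06 in knockout (log2 fold change -2.36, limma adjusted p = 0.000389). As a scale for the marker counts that follow, limma called 0.528% of all tested genes higher and 0.783% lower, and 51.4% had a positive log2 fold change. At unadjusted p under 0.05, 7.13% were higher and 6.58% lower. The authors' deposited table marks 1.74% of its genes with status OK higher and 4.04% lower. All 16 oligodendrocyte lineage markers were tested, and their summed level was 11324 and 11434 FPKM in control against 9584 and 9803 in knockout. Mbp, a myelin protein gene, took the largest part of that difference (2683 and 2655 FPKM against 1501 and 1520) and was the 1 lineage marker called, lower, by limma, while 8 of the 16 had a higher mean in the knockout and the authors' deposited table marks 1 higher and 4 lower. Unadjusted p under 0.05 gave 3 lineage markers higher and 4 lower. Astrocyte markers summed to 792 and 748 FPKM in control against 739.6 and 705 in knockout. Of 9 tested, 0 were called by limma and 0 had a positive log2 fold change. At unadjusted p under 0.05, 0 were higher and 2 lower, and the authors' deposited table marks 3 lower. Neuron markers summed to 261 and 267 FPKM in control against 247 and 244 in knockout. Elavl3 was the 1 neuron marker of 7 tested to be called, lower (119.0 and 117.2 FPKM against 85.1 and 79.9), while 5 of the 7 had a positive log2 fold change, and at unadjusted p under 0.05, 3 were higher and 1 lower. Both Mbp and Elavl3, named after their values were seen, lost the call with each library left out (limma adjusted p 0.0608 to 0.139 and 0.130 to 0.218). Microglia markers summed to 19.0 and 21.2 FPKM in control against 37.1 and 42.4 in knockout, with 3 of 8 tested called higher and Siglech listed at 0. Unadjusted p under 0.05 gave 7 microglia markers higher and 0 lower, and the authors' deposited table marks 5 higher and 0 lower. In bulk samples such as these, fewer cells of a type and less RNA per cell cannot be told apart. What part these other cells have in the receptor values was not tested.

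2 receptor genes were called by limma in the knockout against control. Grm7, which encodes a metabotropic glutamate receptor that inhibits adenylyl cyclase, fell, and Gabrg1, which encodes the gamma 1 subunit of GABA-A receptors, rose. They were 2 of the 23 receptor genes tested (8.70%), while 1.31% of all 11361 tested genes were called. With so few calls, this share says little about the receptors as a set. Among all genes 0.528% were called higher and 0.783% lower.

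Grm7 (chromosome 6, 110645598 to 111567230, mm10, plus strand) was at 22.3 and 24.3 FPKM in the control libraries, and stood at 13.7 and 11.9 in the knockout libraries. Both control libraries lay well above both knockout libraries. The knockout mean was 0.551 times the control mean, with a log2 fold change of -0.81 (SE 0.090, 95% confidence interval -1.03 to -0.60, limma adjusted p = 0.0128). When any single library was removed the estimate stayed between -0.91 and -0.72, but the call was lost in every such fit, where the limma adjusted p ranged from 0.0803 to 0.144. With no filter on low values it was lost too (adjusted p = 0.0820). The authors' deposited table gives a log2 fold change of -0.89 for it, with q listed as 0.

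Gabrg1 was at 6.36 and 6.69 FPKM in control and at 9.54 and 9.74 in knockout. The groups did not overlap, and the libraries within a group were close to each other. The knockout mean was 1.48 times the control mean, with a log2 fold change of 0.50 (SE 0.071, 95% confidence interval 0.33 to 0.67, limma adjusted p = 0.0301). Leaving out each library in turn gave estimates from 0.47 to 0.53 and ended the call each time (limma adjusted p 0.188 to 0.285), as did testing with no filter on low values (adjusted p = 0.118). The authors' deposited table gives 0.58 with q = 2.95e-07.

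The stretches of DNA before the start sites of these genes are shown because they are the receptor genes called by limma. Gabra2 was added as the nearest neighbour of Gabrg1 in the same gene cluster, and did not pass the test. Each is the 250 bases upstream of the start that the gene model in the files uses, from RefSeq on GRCm38.p6, read 5′ to 3′ on the strand of the gene. The Grm7 window is chr6:110645348-110645597 on the plus strand, that of Gabrg1 chr5:70842618-70842867 on the minus strand and that of Gabra2 chr5:71095850-71096099 on the minus strand. Capitals mark E boxes (CANNTG on either strand), the element bound by basic helix-loop-helix factors such as Olig2.
Grm7: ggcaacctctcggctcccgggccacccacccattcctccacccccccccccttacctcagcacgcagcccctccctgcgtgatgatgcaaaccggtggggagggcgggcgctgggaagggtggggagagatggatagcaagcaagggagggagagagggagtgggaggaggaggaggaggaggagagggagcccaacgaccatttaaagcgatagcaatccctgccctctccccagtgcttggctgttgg
Gabrg1: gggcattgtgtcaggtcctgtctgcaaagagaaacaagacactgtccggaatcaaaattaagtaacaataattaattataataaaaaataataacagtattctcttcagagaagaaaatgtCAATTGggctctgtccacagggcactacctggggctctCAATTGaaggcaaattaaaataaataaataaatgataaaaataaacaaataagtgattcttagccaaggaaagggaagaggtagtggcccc
Gabra2: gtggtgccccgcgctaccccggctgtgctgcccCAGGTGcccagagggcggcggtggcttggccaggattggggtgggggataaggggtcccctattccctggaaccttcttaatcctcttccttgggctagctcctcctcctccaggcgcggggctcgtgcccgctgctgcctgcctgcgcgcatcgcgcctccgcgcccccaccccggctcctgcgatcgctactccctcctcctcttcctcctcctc
The Gabrg1 window held 2 E boxes, the Gabra2 window 1 and the Grm7 window 0, and 66.2% of the 32851 such windows of the RefSeq table held at least 1. The nuclear receptor motif AGGTCA, in 14.0% of all windows, and the TATA box TATAAA, in 12.4%, were in none of the 3. The GC box GGGCGG, in 32.7% of windows, was present once in those of Grm7 and Gabra2. Each motif was searched on both strands, and no matches in these 3 windows overlapped. GC content was 65.2% for Grm7, 70.0% for Gabra2 and 35.6% for Gabrg1, against a median of 52.4% over all windows. A match is a description of the letters and does not show that a factor binds there.

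The levels of the receptors covered a wide range. Of the 81 genes, 7 had a mean of at least 10 FPKM, 23 passed the filter of 1 FPKM and were tested, and 58 did not pass. Of these 58, 38 were above 0 in all 4 libraries, 10 were above 0 in 1 to 3 libraries and 10 were listed at 0 throughout. Glutamate receptors made up 80.0% to 82.3% of the summed receptor FPKM in each library. Grik3 and Grik5 alone made up 39.2% to 42.9% of it.

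**Figure D1:**
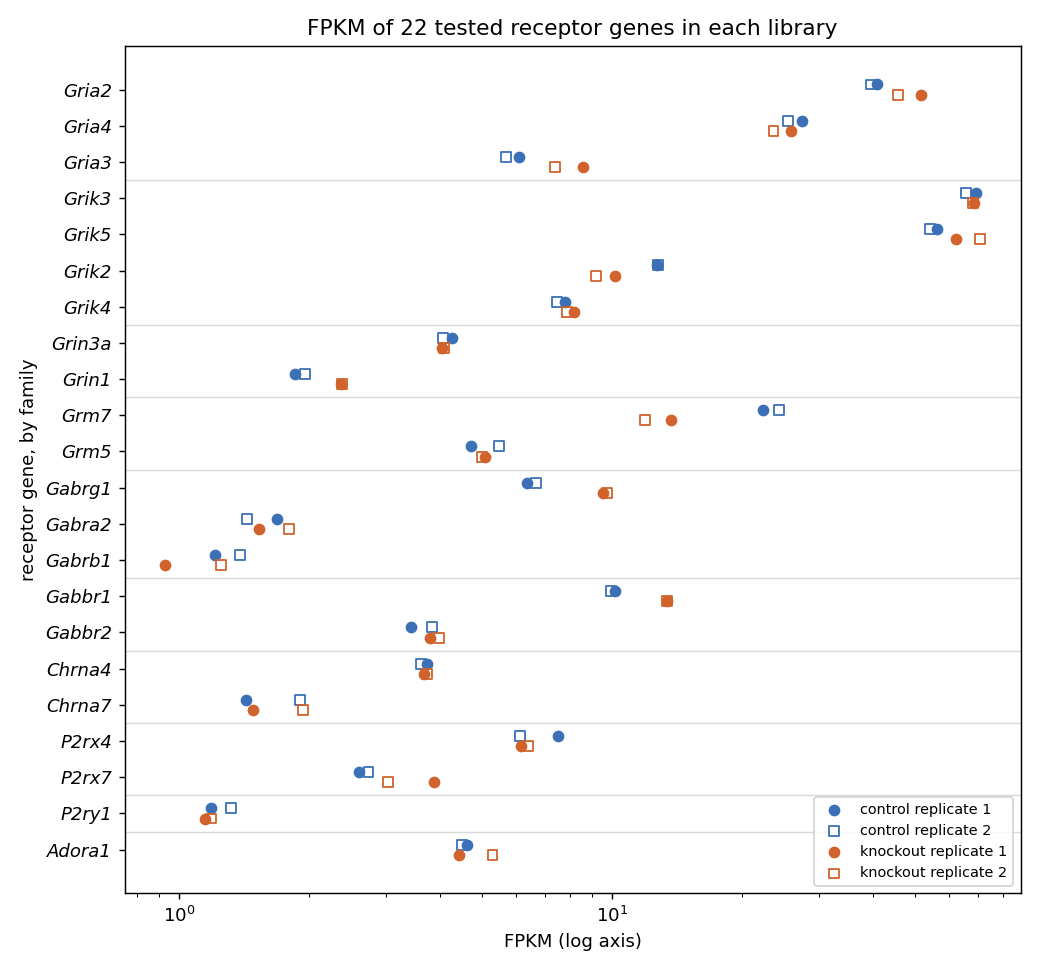
FPKM (log axis) of 22 of the 23 tested receptor genes in each of the 4 libraries, grouped by family, with control in blue and knockout in orange and each point 1 library. Grm7 is lower in both knockout libraries (13.7 and 11.9 FPKM against 22.3 and 24.3) and Gabrg1 is higher in both (9.54 and 9.74 against 6.36 and 6.69), while Grik3 overlaps between groups.

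Kainate receptor subunits were the most abundant. Grik3, a subunit that can form a channel by itself, was at 69.1 and 65.7 FPKM in control and at 68.4 and 68.1 in knockout, and the groups overlapped. Its log2 fold change was 0.02 (95% confidence interval -0.14 to 0.18, limma adjusted p = 0.951), and it was -0.02 without control replicate 2. Grik5, a high-affinity subunit that needs a partner subunit to form a channel, was at 56.1 and 54.2 FPKM in control and at 62.2 and 70.7 in knockout. Grik5 was above control in both knockout libraries but did not pass (log2 fold change 0.26, 95% confidence interval 0.06 to 0.46, limma adjusted p = 0.235).

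Grik2, another channel-forming kainate subunit, was at 12.7 and 12.8 FPKM in control and at 10.2 and 9.16 in knockout. These groups did not overlap, and the log2 fold change of -0.37 did not pass (95% confidence interval -0.55 to -0.18, limma adjusted p = 0.0932). Grik2 is marked as significant in the authors' deposited table (-0.40, q = 0.000191). Grik4, the other high-affinity subunit, was at 7.80 and 7.45 FPKM in control against 8.17 and 7.86 in knockout, a log2 fold change of 0.06. Grik1 was below the filter, between 0.326 and 0.403 FPKM in all libraries.

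Among the AMPA receptor subunits Gria2 was the most abundant, at 40.8 and 39.7 FPKM in control against 51.8 and 45.7 in knockout. Gria2 is the subunit that, in its edited form, keeps calcium from passing through the channel, and FPKM does not show editing. Both knockout libraries were above both control libraries, and the log2 fold change of 0.27 did not pass (95% confidence interval 0.07 to 0.47, limma adjusted p = 0.215). Gria4 was at 27.5 and 25.5 FPKM in control against 25.96 and 23.6 in knockout, overlapping, with a log2 fold change of -0.09. Gria3 was at 6.10 and 5.69 FPKM in control against 8.58 and 7.39 in knockout. Gria3 did not overlap between groups and did not pass (log2 fold change 0.38, 95% confidence interval 0.16 to 0.60, limma adjusted p = 0.127), although the authors' deposited table marks it as significant (0.43, q = 0.000440). Gria1 was below the filter, at 0.930 and 0.789 FPKM in control against 1.07 and 1.01 in knockout.

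Of the NMDA receptor subunits, Grin3a, a glycine-binding modulatory subunit, was highest, at 4.28 and 4.08 FPKM in control against 4.04 and 4.10 in knockout. Grin1, the subunit every NMDA receptor needs, was at 1.86 and 1.95 FPKM in control against 2.37 and 2.38 in knockout. Its log2 fold change of 0.21 did not pass (95% confidence interval -0.0002 to 0.43, limma adjusted p = 0.365). Grin1os lies within Grin1 on the opposite strand, and since no source used here states the strand setting of the counting, reads of this pair cannot be told apart. Other measured genes also overlap tested receptor genes, namely Lrrc26 with Grin1, Ppp3r2 with Grin3a and Mybph with Adora1. How reads in those overlaps were assigned is not stated either. Grin1os was listed between 0.0328 and 0.183 FPKM. The glutamate-binding subunits Grin2a, Grin2b, Grin2c and Grin2d were all under 0.3 FPKM in every library.

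Grm7 made up most of the metabotropic glutamate receptor RNA. Its share of the summed FPKM of the 8 Grm genes was 79.6% and 79.1% in the control libraries against 70.2% and 67.6% in the knockout. The groups did not overlap, and the exact two-sided permutation test gave p = 0.33, the smallest that 2 against 2 samples allow. Grm5, which is coupled to phospholipase C and raises calcium, was at 4.72 and 5.47 FPKM in control against 5.09 and 5.02 in knockout. Grm5 overlapped between groups, with a log2 fold change of -0.01 (95% confidence interval -0.22 to 0.20, limma adjusted p = 0.982) that was 0.08 without control replicate 2 and 0.0007 without knockout replicate 2. Its share of the family averaged 17.4% in control and 27.2% in knockout. Grm3 was between 0.356 and 0.555 FPKM, and Grm6 was listed at 0.

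**Figure D2:**
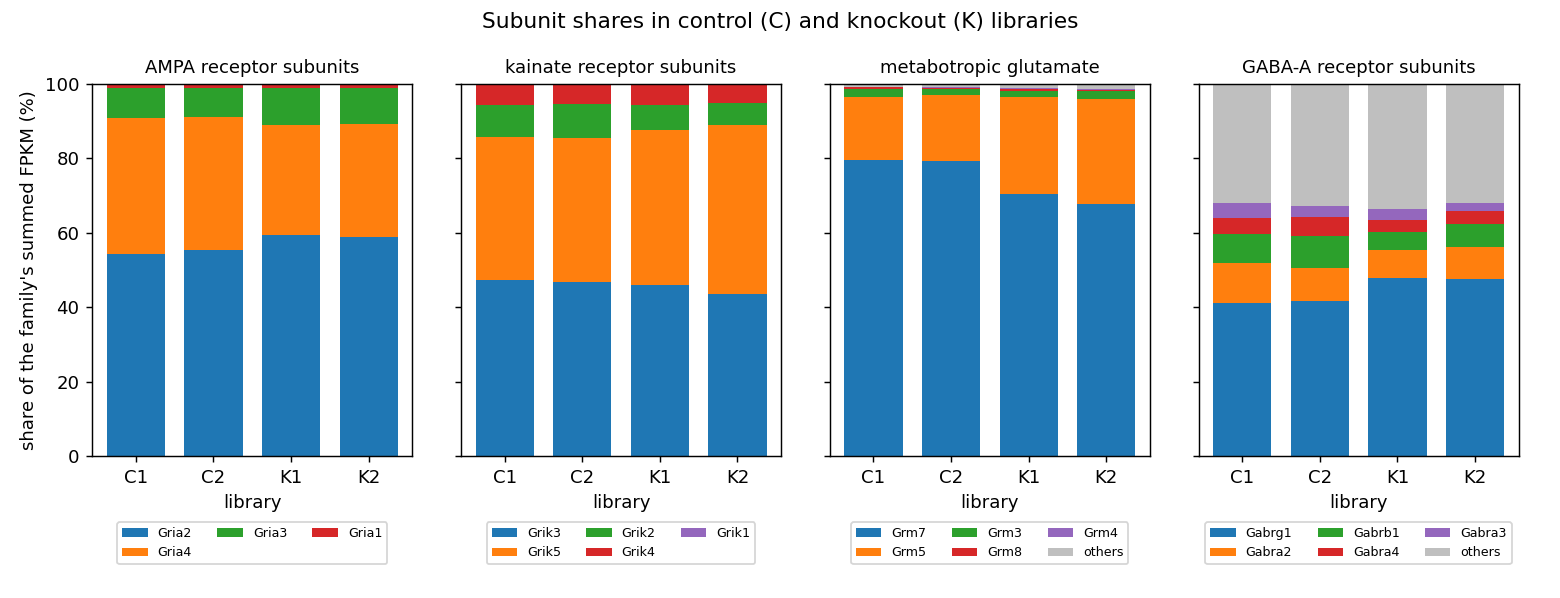
Share (%) of single subunits (colours) and of all others together (grey) in the summed FPKM of their family, for AMPA, kainate, metabotropic glutamate and GABA-A receptor genes, in control libraries 1 and 2 (C1, C2) and knockout libraries 1 and 2 (K1, K2), with bars starting at 0. The Grm7 share is 79.6% and 79.1% in control against 70.2% and 67.6% in knockout, and the Gabrg1 share is 41.0% and 41.6% against 47.8% and 47.4%.

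Other subunit shares also did not overlap between the groups, and an exact permutation test of each gave p = 0.33. Gria2 made up 54.2% and 55.4% of the AMPA receptor FPKM in control against 59.3% and 58.8% in knockout, and Gria4 36.5% and 35.6% against 29.7% and 30.4%. Grik2 made up 8.69% and 9.08% of kainate receptor FPKM in control against 6.80% and 5.87% in knockout. The summed FPKM of the Grm family was 27.99 and 30.7 in control against 19.5 and 17.7 in knockout, while that of the AMPA family was 75.3 and 71.6 against 87.4 and 77.7. The kainate family summed to 146.1 and 140.5 FPKM in control against 149.3 and 156.1 in knockout. Shares within a family are not independent of each other, since they add up to the whole.

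Of 6 tested GABA receptor genes, Gabrg1 was called by limma and the others were not, where 1.31% of all tested genes were called. The GABA-A subunits were led by Gabrg1, which made up 41.0% and 41.6% of their summed FPKM in control against 47.8% and 47.4% in knockout. The summed FPKM of the 15 Gabr genes was 15.5 and 16.1 in control against 20.0 and 20.5 in knockout.

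Gabrg1 (chromosome 5, 70751047 to 70842617, mm10, minus strand) lies in a cluster of GABA-A subunit genes with Gabra2 (70961057 to 71095849), Gabra4 (71569734 to 71658308) and Gabrb1 (71700016 to 72137244). Its neighbours were lower in level and not called. Gabra2, an alpha subunit, was at 1.68 and 1.44 FPKM in control against 1.53 and 1.80 in knockout, overlapping, with a log2 fold change of 0.06 (95% confidence interval -0.20 to 0.32, limma adjusted p = 0.889), and -0.01 without control replicate 2 or knockout replicate 2. Gabrb1, a beta subunit, was at 1.21 and 1.38 FPKM in control against 0.931 and 1.25 in knockout, also overlapping, with a log2 fold change of -0.14 (95% confidence interval -0.43 to 0.15, limma adjusted p = 0.715). Gabra4 was below the filter, between 0.632 and 0.808 FPKM. A test of the difference in change between Gabrg1 and these genes was not made.

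The metabotropic GABA receptor works as a pair of Gabbr1, which binds GABA, and Gabbr2, which couples to the G protein. Gabbr1 was at 10.2 and 9.95 FPKM in control and at 13.4 in both knockout libraries. This difference was larger than the spread within either group and narrowly missed the threshold (log2 fold change 0.38, 95% confidence interval 0.22 to 0.54, limma adjusted p = 0.0599). Gabbr1 passed with a pseudocount of 0.1 (adjusted p = 0.0445), and the authors' deposited table marks it as significant (0.32, q = 0.0136). Gabbr2 was lower in level, at 3.43 and 3.85 FPKM in control against 3.79 and 3.98 in knockout, overlapping, with a log2 fold change of 0.08 (95% confidence interval -0.13 to 0.29, limma adjusted p = 0.795).

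Acetylcholine receptors were low, and 2 of the 21 genes were tested. Chrna4, a subunit of neuronal nicotinic receptors, was at 3.73 and 3.62 FPKM in control against 3.68 and 3.74 in knockout, with a log2 fold change of 0.01 (95% confidence interval -0.18 to 0.20, limma adjusted p = 0.979) that was -0.01 after quantile normalization. Chrna7, whose protein forms a calcium-permeable nicotinic receptor by itself, was at 1.43 and 1.90 FPKM in control against 1.48 and 1.93 in knockout, and the spread within each group was larger than the difference between them. Among the muscarinic receptors Chrm4 was highest, between 0.324 and 0.499 FPKM, followed by Chrm1, between 0.0490 and 0.129. Chrm3 was at 0.0554 and 0.0600 FPKM in control and at 0.0193 and 0 in knockout, levels too low to be tested. The nicotinic subunit genes Chrna2, Chrna6, Chrna9, Chrnb3 and Chrnd were listed at 0 in all 4 libraries.

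Of the 18 purine receptor genes, 4 were tested and 0 were called by limma, with 1 at an unadjusted p under 0.05 and 0 marked significant in the authors' deposited table. Over all tested genes, 1.31% were called, and 7.13% were higher and 6.58% lower at unadjusted p under 0.05. The authors' deposited table marks 5.78% of its OK genes. With 4 genes tested, these counts say little about the purine receptors as a set. P2rx4, an ATP-gated channel, was at 7.52 and 6.15 FPKM in control against 6.18 and 6.41 in knockout, overlapping, with a log2 fold change of -0.10 (limma adjusted p = 0.762) that was 0.03 without control replicate 1. Adora1, the adenosine receptor that inhibits adenylyl cyclase, was at 4.62 and 4.51 FPKM in control against 4.44 and 5.30 in knockout (log2 fold change 0.07, limma adjusted p = 0.830), with an estimate of -0.03 without knockout replicate 2. P2ry1, a receptor for ADP, was at 1.18 and 1.32 FPKM in control against 1.15 and 1.19 in knockout (log2 fold change -0.05, limma adjusted p = 0.892). Both of these genes overlapped between groups. P2ry2, a receptor for ATP and UTP, was below the filter, between 0.178 and 0.261 FPKM. Adora2b, an adenosine receptor that activates adenylyl cyclase, just missed the filter, with 0.847 and 1.49 FPKM in control against 0.824 and 0.813 in knockout.

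Several purine receptors are also known from microglia, whose markers were higher in the knockout libraries. P2rx7, an ATP-gated channel, was at 2.61 and 2.74 FPKM in control against 3.89 and 3.04 in knockout. The groups did not overlap, and the log2 fold change of 0.28 did not pass (95% confidence interval 0.01 to 0.54, limma adjusted p = 0.354). Its estimate was 0.14 without knockout replicate 1 and 0.41 without knockout replicate 2. P2ry6, a receptor for UDP, was at 0.144 and 0.179 FPKM in control against 0.227 and 0.259 in knockout, below the filter. P2ry13 was at 0.0378 and 0.0169 FPKM in control against 0.0203 and 0.0169 in knockout, overlapping and with a lower mean in the knockout. Adora3 was listed at 0 in both control libraries and at 0.0331 and 0.0278 FPKM in knockout. The microglia markers Tyrobp, Laptm5 and Fcrls were called higher by limma, with log2 fold changes of 1.01, 1.03 and 1.14. Each call was lost without either knockout library and with no filter on low values. That of Laptm5 was also lost without either control library. Of the 16 markers, 13 were higher in both knockout libraries than in both control libraries and 0 were lower in both. Among all genes, 22.6% of those tested were higher in this way. Among genes below the filter and above 0 in all 4 libraries, 26.3% were. The part of microglial RNA in these receptor values was not tested.

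**Figure D3:**
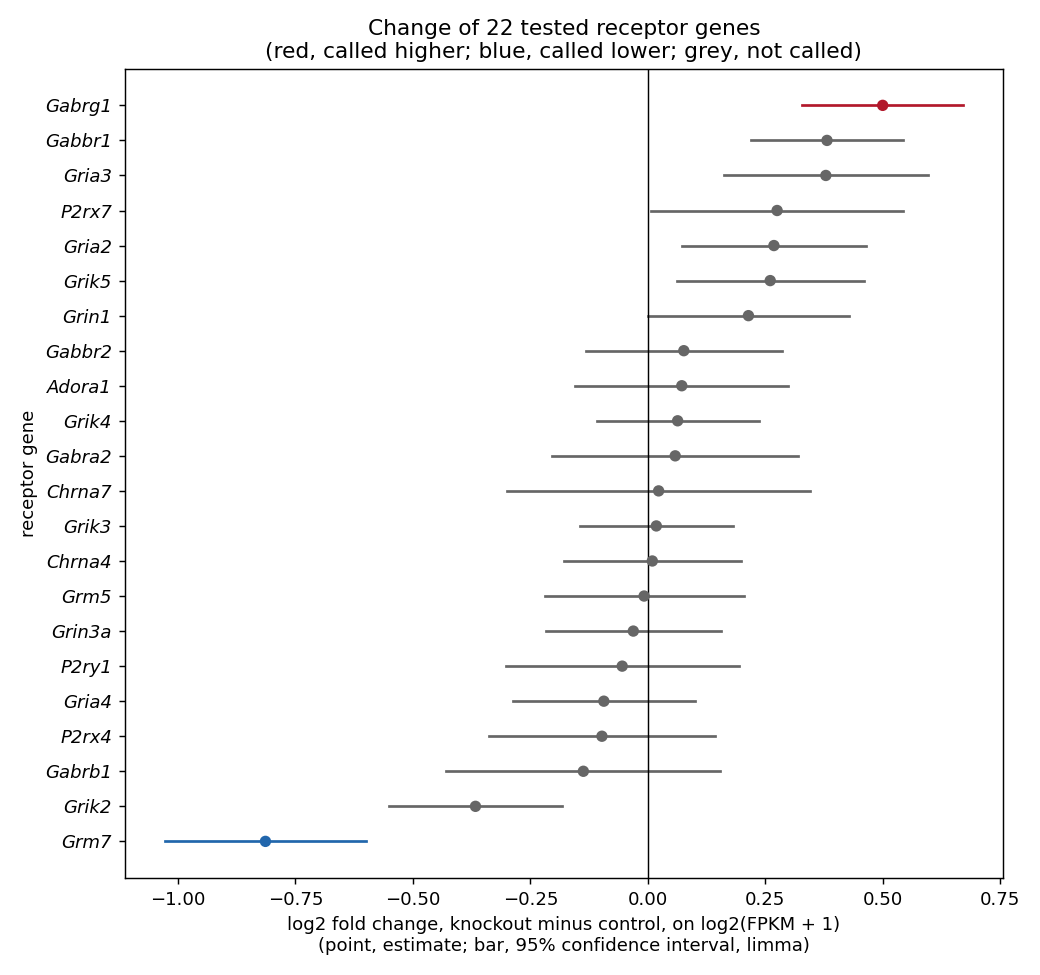
Log2 fold change (knockout minus control, on log2(FPKM + 1)) of 22 of the 23 tested receptor genes, with points for the limma estimates and bars for 95% confidence intervals. Grm7 (-0.81) is called lower and Gabrg1 (0.50) higher, and the other 20 drawn, in grey, are not called.

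Across the 23 tested receptor genes, 15 had a positive log2 fold change and the median was 0.06, beside a median of 0.005 over all genes tested and 51.4% of them positive. Without knockout replicate 2 the receptor median was 0.001, below the 0.013 of all genes in that fit. At an unadjusted p under 0.05, 7 were higher (30.4%) and 2 lower (8.70%), where 7.13% and 6.58% of all tested genes were. In 9 receptor genes every knockout value was above every control value (39.1%, against 22.6% of all genes), and in 2 every one was below (8.70%, against 20.7%). These 23 are not all of the receptor genes, and the shares carry no test. The authors' deposited table lists 31 receptor genes with status OK and marks 5 of them significant (16.1%, against 5.78% of its OK genes), of which Gabrg1, Gabbr1 and Gria3 were higher (9.68%, against 1.74%) and Grm7 and Grik2 lower (6.45%, against 4.04%). The 95% confidence intervals, which are not adjusted for the number of genes, reached 0.16 to 0.32 to either side of the estimates.

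Most of the 58 receptor genes below the filter were barely detected. Their mean was between 0.1 and 1 FPKM in 24 genes and above 0 but under 0.1 in another 24. Among the 38 with a value in every library, 8 (21.1%) were higher and 9 (23.7%) lower in both knockout libraries than in both control libraries, beside 26.3% and 15.4% of all 3570 such genes below the filter. Picked after their values were seen, Gabrb2 was at 0.134 and 0.175 FPKM in control against 0.311 and 0.342 in knockout, and Grm8, a relative of Grm7, was at 0.152 and 0.128 against 0.0584 and 0.0575. No test was made at these levels, since few reads can stand behind such values. The nicotinic subunit Chrne, picked in the same way, was at 0.790 and 1.21 FPKM in control against 0.699 and 0.579 in knockout.

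Genes that make, move or break down the transmitters, and partners of the receptors, were compared next, in 5 lists. For scale, limma called 0.528% of all tested genes higher and 0.783% lower. Unadjusted p under 0.05 gave 7.13% higher and 6.58% lower, and the authors' deposited table marks 1.74% of its OK genes higher and 4.04% lower. With so few tested genes in each list, such counts say little about a list as a set. Of 10 tested genes of glutamate handling 1 rose and 0 fell by limma, with a median log2 fold change of -0.01, where unadjusted p under 0.05 gave 1 higher and 1 lower and the authors' deposited table marks 1 higher and 1 lower. The one that rose was Slc7a11, which takes up cystine in exchange for glutamate, at 2.04 and 2.22 FPKM in control against 5.24 and 4.95 in knockout (log2 fold change 0.96, limma adjusted p = 0.00581). The Slc7a11 call held without control replicate 2 (adjusted p = 0.0478) and was lost without any of the other libraries (up to 0.101) and with no filter on low values (0.0629). The abundant members did not pass. Slc1a1, a glutamate transporter, was at 146.7 and 148.0 FPKM in control against 157.2 and 148.1 in knockout, and Glud1, glutamate dehydrogenase, at 117.6 and 114.4 against 108.6 and 103.9.

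The list of purine handling held 14 tested genes, among them Gpr17 and Enpp6, described below. By limma 1 fell and 0 rose, with a median of -0.04. Unadjusted p under 0.05 gave 1 higher and 3 lower, and the authors' deposited table marks 0 higher and 2 lower. Enpp6 is among the lower genes in both of these counts. Panx1, which forms a membrane channel that releases ATP, fell from 85.5 and 81.5 FPKM in control to 59.6 and 57.6 in knockout. Its log2 fold change was -0.50 (SE 0.069, limma adjusted p = 0.0263), with -0.58 and q = 1.42e-12 in the authors' deposited table. The Panx1 call was lost with each library left out (limma adjusted p 0.139 to 0.232) and with no filter on low values (0.0829). Gpr17, an orphan receptor of differentiating oligodendrocytes related to P2ry receptors, was at 398.4 and 389.8 FPKM in control against 435.5 and 437.2 in knockout. Enpp6, a choline phosphodiesterase of newly forming oligodendrocytes, was at 316.5 and 347.9 FPKM against 281.0 and 283.6. Neither passed (log2 fold changes 0.15 and -0.23, limma adjusted p = 0.404 and 0.245), although the authors' deposited table marks Enpp6 as significant (-0.24, q = 0.00572).

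In the list of auxiliary and scaffold proteins of glutamate channels 0 of 23 tested genes were called by limma, where unadjusted p under 0.05 gave 3 higher and 0 lower, with a median of 0.03 and 1 gene marked higher in the authors' deposited table. Cacng7 and Cacng4, auxiliary subunits of AMPA receptors, were abundant, Cacng7 at 76.5 and 84.4 FPKM in control against 82.2 and 98.5 in knockout and Cacng4 at 51.6 and 44.5 against 44.4 and 46.1. Grid1, a relative of the ionotropic glutamate receptors and picked after its values were seen, was at 9.81 and 8.92 FPKM in control against 12.97 and 13.99 in knockout. Grid1 narrowly missed the threshold (log2 fold change 0.48, limma adjusted p = 0.0505), and is the gene that the authors' deposited table marks (0.47, q = 0.000159).

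Of 14 tested genes of GABA handling 0 were called by limma, where unadjusted p under 0.05 gave 0 higher and 2 lower, with a median of -0.03 and 3 lower in the authors' deposited table. Gabarap, a GABA-A receptor-associated protein also used in autophagy, was at 248.5 and 257.0 FPKM in control against 251.5 and 246.95 in knockout, and its relative Gabarapl2 at 152.8 and 145.85 against 150.8 and 150.2. Of 6 tested genes of acetylcholine handling 0 were called by limma, where unadjusted p under 0.05 gave 1 higher and 1 lower, with a median of -0.001 and 1 lower in the authors' deposited table. The most abundant was Agrn, which encodes agrin, the organizer of the neuromuscular junction, at 86.0 and 81.7 FPKM in control against 72.1 and 80.8 in knockout. Agrn is the gene that the authors' deposited table marks lower (-0.25, q = 0.00323). The 1 lower at unadjusted p was another gene, Prima1 (log2 fold change -0.44, limma adjusted p = 0.0568), picked after its values were seen. Tmem35, which encodes a protein that helps assemble nicotinic receptors, was at 18.2 and 21.3 FPKM in control against 23.6 and 24.2 in knockout (log2 fold change 0.27, limma adjusted p = 0.256).

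**Figure D4:**
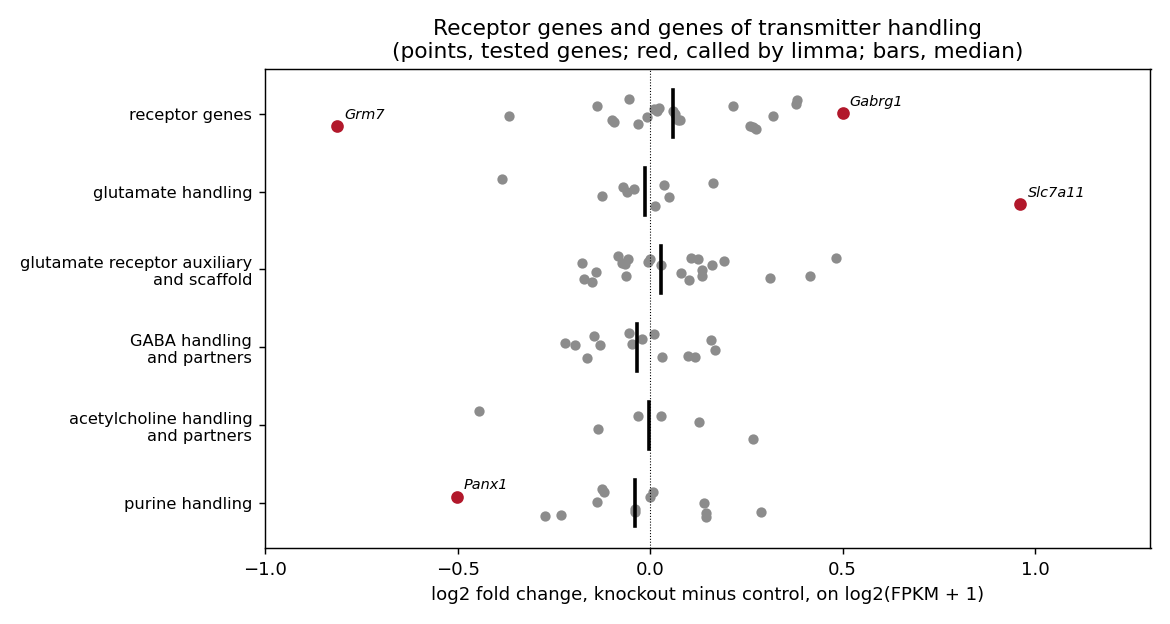
Log2 fold change (knockout minus control, on log2(FPKM + 1)) of the tested receptor genes and of tested genes in 5 lists of transmitter handling and receptor partners, 1 point a gene, with black bars at the medians and vertical scatter for display only. Red points are genes called by limma, namely Grm7 (-0.81), Gabrg1 (0.50), Slc7a11 (0.96) and Panx1 (-0.50), and every partner list median lies between -0.04 and 0.03.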

How the data were processed

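RNA of 4 samples was sequenced. CASAVA, TopHat, Cufflinks and Cuffdiff, and the build mm10, come from the submitters' processing notes without versions, and no source used here gives the annotation or strand setting. The authors deposited 1 table of gene-level FPKM per sample, and a Cuffdiff table with pooled FPKM, a log2 fold change (in a column that also holds codes for infinite values, another unit than a plain log2), a test statistic score, and p-values and q-values for each gene, as the file headers name them. Values from it are always credited to the authors.

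Rows of the same symbol were summed (258 of 23444 symbols; no receptor gene was affected) and 9 symbols with a failed status were left out. With limma 3.58.1 (R 4.3.3), log2(FPKM + 1) was modelled (eBayes with trend, no covariate, all 4 samples, 2 residual and 4.6 prior degrees of freedom) for genes averaging 1 FPKM or more, with Benjamini-Hochberg adjustment over the 11361 genes tested. The scale understates changes of low genes. The script was tested on simulated data. Start coordinates in the files count from 0 and 1 was added. lncOL1 was matched by its RefSeq synonym, and 59 of 81 members had a RefSeq promoter window.

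Named genes are lncOL1, called members, members of at least 1 FPKM, the 2 highest of each family, microglia-known members, and the called and 2 most abundant genes of each partner list. The acetylcholine list named 1 gene under 2 symbols, counted once. The members and lists were chosen with earlier results of these data known. Alternatives changed the pseudocount (0.1), the filter (none, or 0.5), the scaling (TPM, quantile), the row rule, a replicate block and each library left out. Some genes that this rule names are not reported here by name and not drawn as labelled points, but counts and summed values include them.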

Additional observations from a re-analysis of the deposited data

How the results depend on the processing

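The 149 calls over all genes, 60 higher and 89 lower, became 4 (1 and 3) with no filter on low values, where 17397 genes were tested, and 341 (158 and 183) with the replicate number as a block. Leaving out 1 library at a time gave 16 to 42 (11 to 16 higher, 5 to 26 lower), with fewer samples in the fit. Receptor genes called higher numbered 1 in the reported fit, 2 with a pseudocount of 0.1, 0 with no filter and 0 to 0 with a library left out. Those called lower numbered 1, with 0 for no filter and 0 to 0 with a library left out. The 2 calls in the partner lists became 4 with a pseudocount of 0.1 and with TPM scaling, 0 with no filter and 0 to 1 with a library left out. The median of the tested receptor genes ranged from 0.00128 to 0.104 with a library left out. The labels do not say that replicate numbers pair samples, and the deviations of same-numbered samples correlated at -0.05, so the numbers were not taken as pairs. With the block, receptor genes called numbered 3 higher and 2 lower (Gabbr1, Gria3 and Grik2 added) and partner genes 4. Among genes not called, the sign turned with a library left out for Grik3 (-0.017 to 0.054), Grm5 (-0.097 to 0.081), P2rx4 (-0.22 to 0.030), Chrna7 (-0.10 to 0.15), Chrna4 (-0.0071 to 0.027), Adora1 (-0.033 to 0.18), Gabra2 (-0.013 to 0.13), Cacng4 (-0.19 to 0.023), Gabarap (-0.044 to 0.0039) and Gabarapl2 (-0.022 to 0.045), and for Chrna4 under quantile normalization (-0.014). Gria4 (-0.16 to -0.027), Gabrb1 (-0.25 to -0.026), Cacng7 (0.033 to 0.29) and P2rx7 (0.14 to 0.41) kept their sign but moved widely. The causes were not tested. Differences in subunit share stayed at 3.66 to 4.89 percentage points for Gria2, -3.40 to -1.19 for Grik3, -11.8 to -9.11 for Grm7 and 6.001 to 6.54 for Gabrg1. Without read counts, the precision that depth gives the 58 genes below the filter could not be measured.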

Other observations

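Relatives of the receptors that the choice by symbol left out were also measured. The GABA-A subunit genes Gabrd, Gabre and Gabrq were under 0.2 FPKM in every library, and Gabrp was listed at 0. P2ry12, the nucleotide receptor of microglia, was at 0.158 and 0.0856 FPKM in control against 0.0490 and 0.178 in knockout, with overlapping groups, while 14 of the 16 microglia markers had a higher mean in the knockout.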
